A study of Danio rerio with 3 samples.

Results

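The genes described here encode the subunits of the oxidative phosphorylation machinery. They were chosen by gene symbol alone, as genes named for subunits of NADH dehydrogenase (complex I), succinate dehydrogenase (complex II), the cytochrome bc1 complex (complex III), cytochrome c oxidase (complex IV), and ATP synthase (complex V), with assembly factors left out, so that the rule itself uses no measured value. This gave 109 of the 32057 genes in the data, 96 encoded in the nucleus and 13 in mitochondrial DNA. RNA-seq was performed on 3 populations sorted from the kidney of adult zebrafish by the fluorescence of gata2a:GFP and runx1:mCherry, namely a gata2a+ runx1+, a gata2a- runx1+, and a gata2a+ runx1- population. All 3 came from the non-granulocytic fraction with low side scatter of fish whose genotype is given as wild type and which carried both transgenes, and mCherry was driven by a mouse Runx1 enhancer that does not fully follow runx1 itself. The labels call the sources HSCs for gata2a+ runx1+ cells and erythroid- and/or myeloid-primed progenitors for gata2a- runx1+ cells, and lymphoid-primed progenitors for gata2a+ runx1- cells, and whether animals were pooled is not stated. Each population was sequenced as 1 library, so no difference below has a replicate check, and no test of the populations was possible.

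Oxidative phosphorylation is carried out in the inner mitochondrial membrane. Complexes I and II pass electrons from NADH and succinate to ubiquinone, complex III passes them to cytochrome c, complex IV passes them to oxygen, and complexes I, III, and IV pump protons that drive ATP synthesis in complex V. Complex II is made of nuclear-encoded subunits only, whereas the other complexes combine subunits made in the cytosol with subunits translated inside the mitochondrion, so that transcripts from both genomes are needed for assembly. Blood stem cells of mammals are known for relying less on oxidative phosphorylation than the progenitors they give rise to.

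The 3 libraries held between 8094670 and 8205803 reads on genes, and values are given in RPM, the reads of a gene scaled by the library's total on genes. A value of 3 reads was taken as the smallest detected and corresponds to between 0.366 and 0.371 RPM. Ratios carry 95% exact binomial intervals on the reads, and shares carry 95% Wilson or exact binomial intervals. The cDNA was primed on poly-A tails and amplified by PCR without molecular identifiers, so intervals and floors cover counting error only. Of the 109 genes, 93 averaged 1 RPM or more over the 3 libraries and were compared gene by gene, 80 nuclear-encoded and all 13 mitochondrially encoded, and sums were taken over all 109. Marker genes set the libraries apart. Summed erythroid markers were at 378.6 RPM for gata2a+ runx1+, 3064 RPM for gata2a- runx1+, and 301.3 RPM for gata2a+ runx1- cells, and summed B cell markers were at 72.6, 13.4, and 2494 RPM in the same order. The erythroid sums of gata2a+ runx1+ and gata2a+ runx1- cells were close, but most single genes differed. Of 8 erythroid genes tested, 7 were over 2-fold higher in gata2a+ runx1+ than in gata2a+ runx1- cells (20.6% of all genes were). The other 1 was over 2-fold lower (21.9% of all genes). HSC-related genes summed to 1456, 1718, and 174.6 RPM in the same order of libraries, among them gata2b, with 1164, 141, and 89 reads. Of 8 HSC-related genes tested, 6 were highest in gata2a+ runx1+ cells (31% of all genes were). The other 2, tal1 and lmo2, were highest in gata2a- runx1+ cells (31.6% of all genes), so the order of the sums was not that of most of these genes. Kidney tubule markers, tubule cells being rich in mitochondria, summed to 717.7, 790.5, and 480.2 RPM, most of it from SLC20A1. LRP2 and CUBN had at most 27 reads in any library and SLC13A1 had 0. Of 5 tubule genes tested, 4 were lower in gata2a+ runx1+ than in gata2a- runx1+ cells (44.7% of all genes were). Among these, 3 were over 2-fold lower (12.7% of all genes). The other 1 was over 2-fold higher (20.9%). Relative to gata2a+ runx1- cells, 3 were higher and 2 lower (47.8% of all genes were lower). The part of tubule cells in the results was not tested.

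The summed transcripts of the 109 genes took a similar part of each library, but the 2 genomes went opposite ways. All subunits together were at 24437 RPM for gata2a+ runx1+, 24230 RPM for gata2a- runx1+, and 26433 RPM for gata2a+ runx1- cells. The nuclear-encoded subunits summed to 10102 RPM for gata2a+ runx1+, against 15149 RPM for gata2a- runx1+, and 13625 RPM for gata2a+ runx1- cells. The 13 mitochondrially encoded subunits summed to 14335 RPM for gata2a+ runx1+, against 9081 RPM for gata2a- runx1+, and 12808 RPM for gata2a+ runx1- cells. Thus gata2a+ runx1+ cells had the lowest nuclear-encoded sum and the highest mitochondrially encoded sum of the 3 libraries.

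The nuclear-encoded sum of gata2a+ runx1+ cells was 0.667 of that in gata2a- runx1+ cells (0.661 to 0.673) and 0.741 of that in gata2a+ runx1- cells (0.735 to 0.748). The mitochondrially encoded sum was 1.58 times that in gata2a- runx1+ cells (1.56 to 1.59) and 1.12 times that in gata2a+ runx1- cells (1.11 to 1.13). Between the other populations, gata2a- runx1+ over gata2a+ runx1-, the ratio was 1.11 for the nuclear-encoded sum and 0.709 for the mitochondrially encoded sum. The reads of mitochondrially encoded subunits per read of nuclear-encoded subunits were 1.42 for gata2a+ runx1+, 0.599 for gata2a- runx1+, and 0.940 for gata2a+ runx1- cells. This quotient compares reads within a library and does not depend on the scaling between libraries. It rested in part on the gene with the most reads of each class, and was 1.05, 0.484, and 0.705 in the same order without them. In bulk samples, fewer cells of a type and less RNA per cell cannot be told apart.

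**Figure D1:**
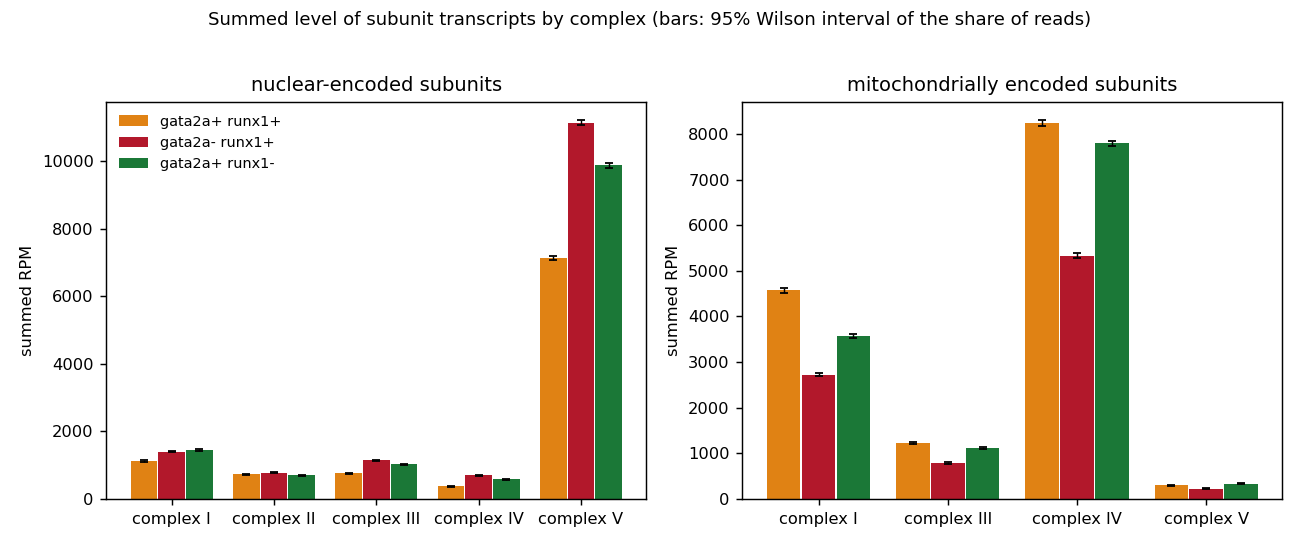
Summed RPM of nuclear-encoded subunits (left) and mitochondrially encoded subunits (right) of each complex in gata2a+ runx1+ (orange), gata2a- runx1+ (red), and gata2a+ runx1- cells (green), with 95% Wilson intervals as error bars. For complex V the nuclear-encoded sum was 7124 RPM in gata2a+ runx1+ cells, against 11130 RPM for gata2a- runx1+ and 9875 RPM for gata2a+ runx1- cells, whereas for complex I the mitochondrially encoded sum was 4570 RPM, against 2723 and 3570 RPM.

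The same order of the quotient was seen within each complex that has subunits of both genomes. For complex I, mitochondrially encoded reads per nuclear-encoded read were 4.06 for gata2a+ runx1+, 1.94 for gata2a- runx1+, and 2.47 for gata2a+ runx1- cells. For complex III they were 1.63, 0.696, and 1.09, and for complex IV 22.2, 7.64, and 13.4. For complex V, whose nuclear-encoded genes hold most of the reads, they were 0.0426, 0.0204, and 0.0339. Relative to gata2a- runx1+ cells, the quotient in gata2a+ runx1+ cells was 2.90-fold higher for complex IV and between 2.09-fold and 2.34-fold higher for complexes I, III, and V. The complex IV value rests in part on MT-CO1, with 54599 of 66884 mitochondrially encoded complex IV reads in gata2a+ runx1+ and 30382 of 43781 in gata2a- runx1+ cells. The ratio of RPM between these libraries was 1.82 for MT-CO1, but 0.906 for MT-CO2 and 0.941 for MT-CO3.

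Among single nuclear-encoded genes, 68 of the 80 tested were lowest in gata2a+ runx1+ cells, whereas 23.7% of all genes tested were lowest there. In gata2a- runx1+ cells 55 of the 80 were highest, against 31.6% of all genes, and 21 were highest in gata2a+ runx1- cells, against 37.3% of all genes. Only 4 nuclear-encoded genes were highest in gata2a+ runx1+ cells (31% of all genes were), NDUFB9, NDUFA8, SDHA, and COX4I2, while 3 were lowest in gata2a- runx1+ cells (35.4% of all genes) and 9 in gata2a+ runx1- cells (38.5% of all genes). NDUFA8 had 11 reads for gata2a+ runx1+, 10 reads for gata2a- runx1+, and 9 reads for gata2a+ runx1- cells, and its intervals held 1. For SDHA this place rests on a ratio near 1, and with TMM factors its ratio of gata2a+ runx1+ to gata2a- runx1+ cells was 0.972. The number lowest in gata2a+ runx1+ cells was between 68 and 70 under the other scalings of the libraries that were tried.

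In gata2a+ runx1+ cells compared with gata2a- runx1+ cells, 73 of the 80 nuclear-encoded genes were lower and 7 higher, and 44.7% of all genes tested were lower. A ratio under 0.5, here called over 2-fold lower, was reached by 31 of the 80, compared with 12.7% of all genes, and a ratio over 2 by 0, compared with 20.9% of all genes. The median difference in log2(RPM + 1) was -0.78 over the nuclear-encoded genes and 0.07 over all 12339 genes tested. Compared with gata2a+ runx1- cells, 71 of the 80 were lower in gata2a+ runx1+ cells and 9 higher, and 47.8% of all genes were lower. Here 17 were over 2-fold lower (21.9% of all genes) and 4 over 2-fold higher (20.6%), NDUFB9, ndufa7, ndufv3, and COX4I2, so that the share over 2-fold lower was close to that of all genes, whereas the median was -0.52 for the nuclear-encoded genes and 0.05 for all genes. In gata2a- runx1+ cells compared with gata2a+ runx1- cells, 59 of the 80 were higher (49.3% of all genes), with 7 over 2-fold higher (21.1% of all genes), 1, NDUFA1, over 2-fold lower (26.9%), and a median of 0.18 against -0.01 over all genes. Over 2-fold above each other library stood 0 nuclear-encoded genes in gata2a+ runx1+ cells (7.48% of all genes did), 4 in gata2a- runx1+ cells (6.56%), ndufa5, COX6A1, COX5B (ENSDARG00000068738), and atp5f1e, and 1 in gata2a+ runx1- cells (16.1%). The first 2 comparisons share the gata2a+ runx1+ library, and a value particular to that library enters both.

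**Figure D2:**
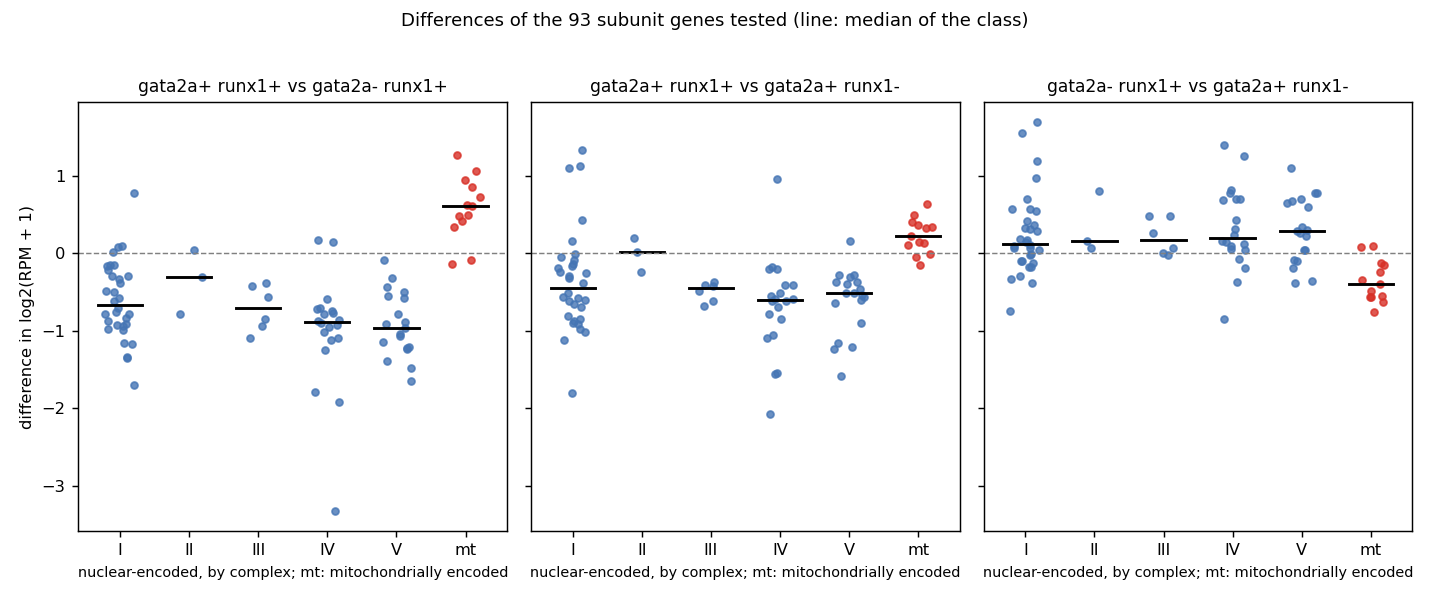
Difference in log2(RPM + 1) of each of the 93 subunit genes tested, in 3 comparisons of libraries, by complex for nuclear-encoded genes (blue) and together for the 13 mitochondrially encoded genes (mt, red); black lines are medians and the dashed line marks no difference. The median of nuclear-encoded complex V genes was -0.96 in gata2a+ runx1+ compared with gata2a- runx1+ cells, and that of mitochondrially encoded genes was 0.62.

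The nuclear-encoded sums differed by complex. In gata2a+ runx1+ over gata2a- runx1+ cells the ratio was 0.532 for complex IV (0.509 to 0.556), 0.640 for complex V (0.633 to 0.647), 0.661 for complex III (0.640 to 0.683), 0.804 for complex I (0.782 to 0.826), and 0.932 for complex II (0.899 to 0.966). The intervals of complexes III and V overlap, and those of the others do not overlap any neighbour's. In gata2a+ runx1+ over gata2a+ runx1- cells the ratios were 0.637, 0.721, 0.740, 0.777, and 1.04 in the same order of complexes, and the last was 0.998 with TMM factors and 0.967 with DESeq2 size factors, so no direction is given for complex II. In gata2a- runx1+ over gata2a+ runx1- cells they were 1.20, 1.13, 1.12, 0.967, and 1.11, and the value for complex I was 1.01 when the genes with the most reads were left out.

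Complex I holds a core that binds FMN and iron-sulfur clusters and transfers the electrons, and accessory subunits around it. The 7 nuclear-encoded core genes summed to 755 RPM for gata2a+ runx1+, 861.2 RPM for gata2a- runx1+, and 962.7 RPM for gata2a+ runx1- cells, and the accessory genes to 370.5, 539.1, and 485.3 RPM. NDUFS1 of the core and NDUFA12, NDUFB4, NDUFB5, and NDUFS4 of the accessory genes were listed at 0 throughout and added nothing to these sums. NDUFV1, the FMN-binding subunit and the nuclear-encoded gene of this complex with the most reads, was at 474.4 RPM for gata2a+ runx1+, 524.5 RPM for gata2a- runx1+, and 559.8 RPM for gata2a+ runx1- cells. NDUFV2, its iron-sulfur partner, was at 38.5 RPM for gata2a+ runx1+, 54.6 RPM for gata2a- runx1+, and 71.2 RPM for gata2a+ runx1- cells. Both core genes thus had their highest level in gata2a+ runx1- cells. NDUFS8, an iron-sulfur subunit of the arm that reaches the membrane, had the lowest ratio of this complex to both other libraries among nuclear-encoded genes averaging 5 RPM or more, at 2.09 RPM for gata2a+ runx1+, 9.02 RPM for gata2a- runx1+, and 9.76 RPM for gata2a+ runx1- cells. Its ratio was 0.232 to gata2a- runx1+ cells (0.128 to 0.397) and 0.214 to gata2a+ runx1- cells (0.119 to 0.365), and it rested on 17 reads in gata2a+ runx1+ cells.

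Some accessory genes had another order of the libraries. NDUFB9, a subunit of the membrane arm, was at 10.96 RPM for gata2a+ runx1+, 5.97 RPM for gata2a- runx1+, and 4.57 RPM for gata2a+ runx1- cells. Its ratios of 1.83 (1.28 to 2.66) and 2.40 (1.62 to 3.62) were the only pair of ratios among nuclear-encoded complex I genes whose intervals lay above 1 in both comparisons of gata2a+ runx1+ cells. ndufv3, a small subunit at the NADH-binding end, was at 8.37 RPM for gata2a+ runx1+, 9.87 RPM for gata2a- runx1+, and only 2.72 RPM for gata2a+ runx1- cells. It was 3.08-fold higher in gata2a+ runx1+ cells (1.88 to 5.23) and 3.63-fold higher in gata2a- runx1+ cells (2.24 to 6.11) than in gata2a+ runx1- cells. ndufa7 was similar, with 14 reads for gata2a+ runx1+, 25 reads for gata2a- runx1+, and 2 reads for gata2a+ runx1- cells. By contrast, NDUFA1 had 8 reads for gata2a+ runx1+, 10 reads for gata2a- runx1+, and 22 reads for gata2a+ runx1- cells, and was the only subunit gene over 2-fold higher in that library than in each other. ndufa5 had 10, 28, and 10 reads in the same order. The intervals of these low genes are wide.

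Complex II, which is also an enzyme of the TCA cycle, had sums closer to equal than those of the other complexes in both comparisons of gata2a+ runx1+ cells. SDHA, the flavoprotein that oxidizes succinate, was at 491.3 RPM for gata2a+ runx1+, 477.1 RPM for gata2a- runx1+, and 426.7 RPM for gata2a+ runx1- cells. SDHB, the iron-sulfur subunit, was at 213 RPM for gata2a+ runx1+, 263.1 RPM for gata2a- runx1+, and 251.3 RPM for gata2a+ runx1- cells. The interval of the SDHA ratio between gata2a+ runx1+ and gata2a- runx1+ cells held 1 (1.03, 0.985 to 1.08). SDHD (ENSDARG00000030139), a membrane anchor, differed more, with 21.8 RPM for gata2a+ runx1+, 38.1 RPM for gata2a- runx1+, and 21.5 RPM for gata2a+ runx1- cells. SDHC, the other anchor, had 4, 11, and 3 reads in the same order and was under the minimum.

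All 6 nuclear-encoded complex III genes tested were lowest in gata2a+ runx1+ cells. The rule took nuclear-encoded genes of this complex only by symbols that begin with uqcr. The gene of cytochrome c1 has another symbol and is in none of the counts and sums. The genes UQCRC2 and uqcrc2a, which encode a core protein, were at 237.6 and 234.1 RPM for gata2a+ runx1+, 311.2 and 346.7 RPM for gata2a- runx1+, and 314.8 and 329.1 RPM for gata2a+ runx1- cells. The copies took nearly equal parts of their summed reads in each library, UQCRC2 having 50.4%, 47.3%, and 48.9%. UQCRFS1, the Rieske iron-sulfur protein, was at 180.2 RPM for gata2a+ runx1+, 324.6 RPM for gata2a- runx1+, and 232.2 RPM for gata2a+ runx1- cells. UQCRH, the small hinge protein beside cytochrome c1, was at 20.9 RPM for gata2a+ runx1+, 45.7 RPM for gata2a- runx1+, and 32.5 RPM for gata2a+ runx1- cells. The ratio of UQCRH to gata2a- runx1+ cells was 0.458 (0.380 to 0.550), next to UQCR10, another small subunit, at 0.449 (0.265 to 0.739), and that of UQCRC2 was the highest of these genes at 0.763 (0.719 to 0.810). The intervals of UQCRH and UQCRC2 do not overlap, so the subunits of this complex differed by unequal amounts between the same libraries.

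Complex IV had the lowest nuclear-encoded ratio of the 5 complexes, and 18 of its 20 nuclear-encoded genes tested were lowest in gata2a+ runx1+ cells. COX4I1, a regulatory subunit and the nuclear-encoded gene of this complex with the most reads, was at 78.8 RPM for gata2a+ runx1+, 132.7 RPM for gata2a- runx1+, and 128.1 RPM for gata2a+ runx1- cells. COX7A2 (ENSDARG00000053217), a small membrane subunit, was at 3.08 RPM for gata2a+ runx1+, 13.04 RPM for gata2a- runx1+, and 10.9 RPM for gata2a+ runx1- cells. Its ratios of 0.236 (0.146 to 0.367) and 0.283 (0.174 to 0.446) were the lowest of the complex in both comparisons of gata2a+ runx1+ cells among nuclear-encoded genes averaging 5 RPM or more. cox8b was near equal in all 3 libraries, at 7.51 RPM for gata2a+ runx1+, 6.58 RPM for gata2a- runx1+, and 8.77 RPM for gata2a+ runx1- cells, and its intervals held 1 in every comparison. NDUFA4, named for complex I but counted here with complex IV, in which its mammalian counterpart is found, was at 30.4, 50.45, and 46.2 RPM in the same order.

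Several complex IV subunits have isoforms or duplicate copies, and the libraries differed in which copy was read. COX4I2, known in mammals as an oxygen-regulated isoform, was at 22.4 RPM for gata2a+ runx1+, 20.1 RPM for gata2a- runx1+, and 10.99 RPM for gata2a+ runx1- cells. It took 21.7% of COX4 reads in gata2a+ runx1+ cells (18.9 to 24.6), 12.8% in gata2a- runx1+ cells (11.02 to 14.7), and 7.70% in gata2a+ runx1- cells (6.23 to 9.39). The 3 intervals do not overlap. COX6A1 (ENSDARG00000054588) was at 8.37 RPM for gata2a+ runx1+, 34.2 RPM for gata2a- runx1+, and 12.35 RPM for gata2a+ runx1- cells, and took 16.1%, 29.9%, and 11.9% of COX6A reads. In gata2a- runx1+ cells it was thus over 2-fold above each other library, while the other gene of the family, cox6a1 (ENSDARG00000022438), was not, at 43.7, 80.3, and 91.4 RPM.

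For COX6B the gata2a+ runx1- library stood apart. cox6b1 was at 11.1 RPM for gata2a+ runx1+, 18.65 RPM for gata2a- runx1+, and 34.5 RPM for gata2a+ runx1- cells, and cox6b2 at 28.7, 56.4, and 32.5 RPM. The share of cox6b1 was 27.9% for gata2a+ runx1+ (23.0 to 33.1), 24.8% for gata2a- runx1+ (21.5 to 28.4), and 51.5% for gata2a+ runx1- cells (47.2 to 55.8). Of the COX5B copies, ENSDARG00000068738 had 0 of 180 COX5B reads in gata2a+ runx1+ cells, which allows a share of up to 2.03%, 74 reads or 14.4% in gata2a- runx1+ cells, and 26 reads or 6.16% in gata2a+ runx1- cells. With 3 reads in place of 0 for gata2a+ runx1+ cells, this copy was 24.4-fold lower there than in the gata2a- runx1+ library. The interval of its ratio without that floor reached up to 0.0516. ENSDARG00000113254 had 4 reads, all in gata2a+ runx1- cells. COX5A, COX7A, and COX8 also have several genes. cox5aa took between 81.4% and 85.7% of COX5A reads, cox8b took 45.2% of COX8 reads for gata2a+ runx1+, 27.4% for gata2a- runx1+, and 35.0% for gata2a+ runx1- cells, and the COX7A shares had overlapping intervals. Of the cox8b shares, the intervals of gata2a+ runx1+ (36.6 to 54.0) and gata2a- runx1+ cells (21.3 to 34.2) did not overlap. Reads of near-identical copies may have been divided differently by the counting, whose treatment of reads with several matches is not given in the sources used here.

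**Figure D3:**
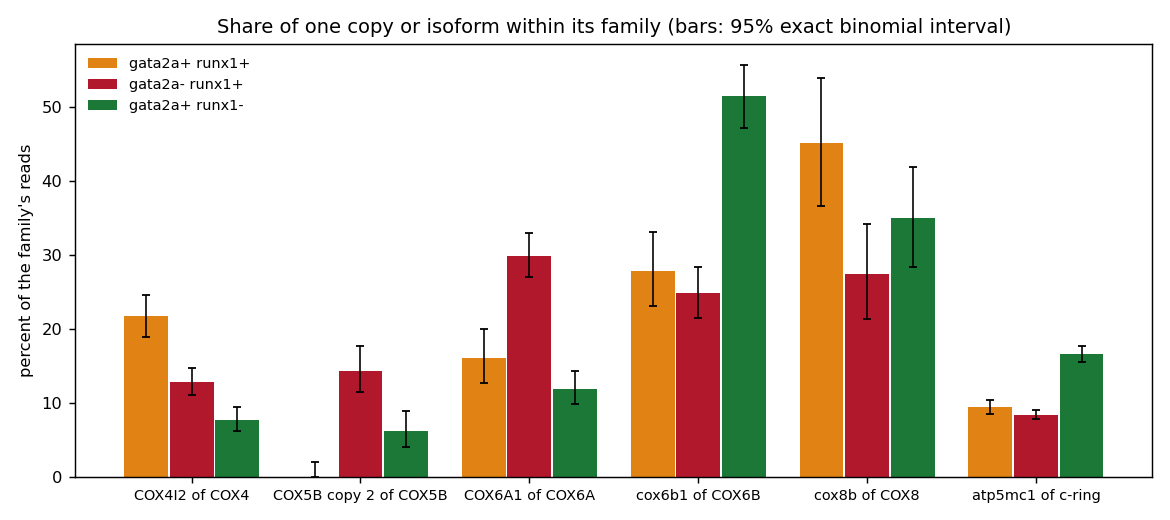
Share, in percent, of a named copy or isoform in the summed reads of its family, in gata2a+ runx1+ (orange), gata2a- runx1+ (red), and gata2a+ runx1- cells (green), with 95% exact binomial intervals; COX5B copy 2 is ENSDARG00000068738. COX4I2 was at 21.7% in gata2a+ runx1+ cells, against 12.8% in gata2a- runx1+ and 7.70% in gata2a+ runx1- cells, and cox6b1 at 51.5% in gata2a+ runx1- cells.

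Complex V is a rotary motor with a catalytic F1 head, a central and a peripheral stalk, and a membrane ring of c subunits, and 18 of its 19 nuclear-encoded genes tested were lowest in gata2a+ runx1+ cells. The catalytic ATP5F1B was at 2859 RPM for gata2a+ runx1+, 4038 RPM for gata2a- runx1+, and 4334 RPM for gata2a+ runx1- cells. ATP5F1A, which alternates with it in the head, was at 2865 RPM for gata2a+ runx1+, 4280 RPM for gata2a- runx1+, and 3467 RPM for gata2a+ runx1- cells. These genes held most of the nuclear-encoded reads, and without them the nuclear-encoded ratio of gata2a+ runx1+ over gata2a- runx1+ cells was 0.641 in place of 0.667. atp5f1e, the smallest subunit of the central stalk, was at 3.69 RPM for gata2a+ runx1+, 13.7 RPM for gata2a- runx1+, and 5.81 RPM for gata2a+ runx1- cells. It was the only nuclear-encoded gene of this complex that stood over 2-fold above each other library in gata2a- runx1+ cells.

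Among nuclear-encoded genes, the membrane part and the peripheral stalk were lower in gata2a+ runx1+ than in gata2a- runx1+ cells by more than the head. The mitochondrially encoded membrane subunits are not in these sums. Their ratios between the same libraries were 1.33 for MT-ATP6 (1.25 to 1.42) and 1.52 for mt-atp8 (0.949 to 2.45). In gata2a+ runx1+ over gata2a- runx1+ cells the summed ratio was 0.679 for the head and central stalk (0.672 to 0.687), 0.493 for the peripheral stalk (0.476 to 0.510), 0.477 for the c-ring (0.459 to 0.496), and 0.446 for the small membrane subunits (0.380 to 0.522). Against gata2a+ runx1- cells the same parts had 0.728, 0.659, 0.737, and 0.527. The c-ring thus stood apart from the head in the first comparison and not in the second. In mammals, several genes encode the same mature c subunit, and here atp5mc3b was at 376.9 RPM for gata2a+ runx1+, 834.9 RPM for gata2a- runx1+, and 487.2 RPM for gata2a+ runx1- cells. atp5mc1 was at 44.1 RPM for gata2a+ runx1+, 82.0 RPM for gata2a- runx1+, and 105.1 RPM for gata2a+ runx1- cells, and took 9.44%, 8.37%, and 16.6% of the c-ring reads. ATP5MC3, at 46.0, 62.5, and 41.1 RPM, was the only nuclear-encoded complex V gene above its gata2a+ runx1- value in gata2a+ runx1+ cells, with an interval that held 1 (1.12, 0.963 to 1.30).

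Among the small subunits, atp5meb had the lowest ratio to gata2a+ runx1- cells. It was at 2.59 RPM for gata2a+ runx1+, 8.41 RPM for gata2a- runx1+, and 9.76 RPM for gata2a+ runx1- cells, and its partner atp5mea had 8, 9, and 14 reads. The inhibitor atp5if1a, which in mammals stops the enzyme from hydrolysing ATP, was at 11.6 RPM for gata2a+ runx1+, 23.5 RPM for gata2a- runx1+, and 14.6 RPM for gata2a+ runx1- cells. It took most of the inhibitor reads in each library, and atp5if1b had at most 11 reads.

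Of the 13 mitochondrially encoded genes, 10 were highest in gata2a+ runx1+ cells (31% of all genes tested were) and 11 lowest in gata2a- runx1+ cells (35.4%). Their median difference in log2(RPM + 1) was 0.62 in gata2a+ runx1+ compared with gata2a- runx1+ cells, 0.22 in gata2a+ runx1+ compared with gata2a+ runx1- cells, and -0.40 in gata2a- runx1+ compared with gata2a+ runx1- cells. All 7 complex I genes had the order gata2a+ runx1+, gata2a+ runx1-, gata2a- runx1+ from high to low, and their intervals excluded 1 in each comparison. MT-ND4 was at 1921 RPM for gata2a+ runx1+, 921.5 RPM for gata2a- runx1+, and 1365 RPM for gata2a+ runx1- cells. mt-nd4l, which overlaps it and in mammals is carried on the same transcript, was at 142.7 RPM for gata2a+ runx1+, 58.7 RPM for gata2a- runx1+, and 91.05 RPM for gata2a+ runx1- cells. These genes and MT-ND3, at 18.8, 9.26, and 14.0 RPM, were the only 3 mitochondrially encoded genes over 2-fold higher in gata2a+ runx1+ than in gata2a- runx1+ cells (20.9% of all genes tested were), with ratios of 2.08 (2.03 to 2.14), 2.43 (2.18 to 2.71), and 2.03 (1.53 to 2.71). The share of the 13 genes over 2-fold higher was thus close to that of all genes. With TMM or DESeq2 factors only 1 of these 3 genes, mt-nd4l, was over 2-fold higher.

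The other complex I genes differed less. MT-ND1 was at 810.6 RPM for gata2a+ runx1+, 639.7 RPM for gata2a- runx1+, and 695.9 RPM for gata2a+ runx1- cells, and MT-ND2 at 662.9, 475.8, and 601.8 RPM. MT-ND5 was at 858.1 RPM for gata2a+ runx1+, 517.2 RPM for gata2a- runx1+, and 682 RPM for gata2a+ runx1- cells. MT-ND6, the only protein gene on the opposite strand of mitochondrial DNA, was at 155.8 RPM for gata2a+ runx1+, 101.3 RPM for gata2a- runx1+, and 120.2 RPM for gata2a+ runx1- cells. The ratio of MT-ND6 between gata2a+ runx1+ and gata2a- runx1+ cells, 1.54, lay within the range of the genes of the other strand. Whether the counting used strand is not given in the sources used here.

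**Figure D4:**
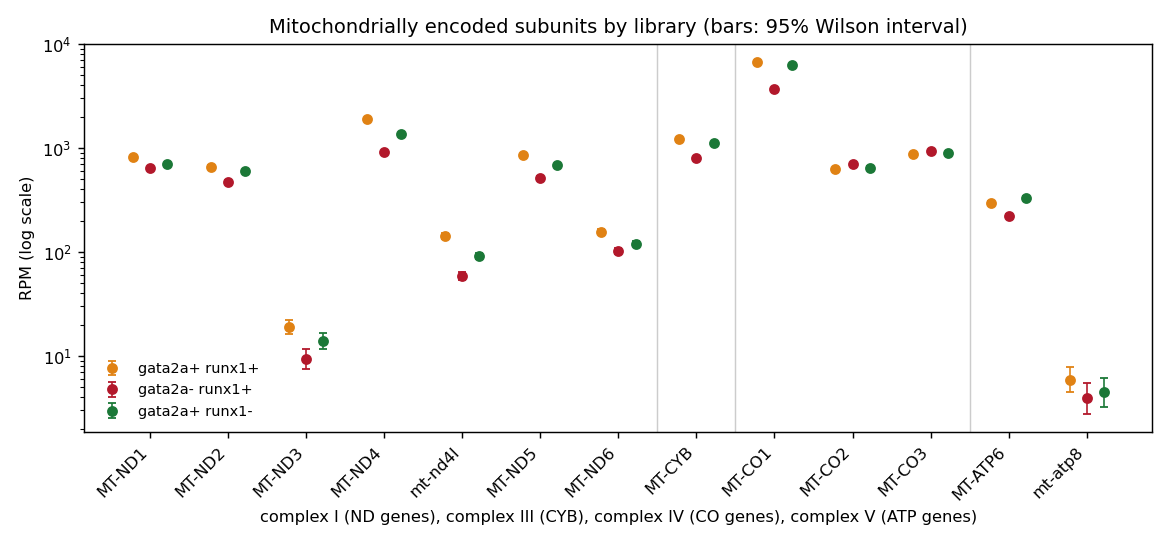
RPM on a log axis of the 13 mitochondrially encoded genes in gata2a+ runx1+ (orange), gata2a- runx1+ (red), and gata2a+ runx1- cells (green), with 95% Wilson intervals, grouped by complex. The 7 ND genes were highest in gata2a+ runx1+ and lowest in gata2a- runx1+ cells, whereas MT-CO2 and MT-CO3 were close together in all 3 libraries.

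Complex IV genes of mitochondrial DNA did not move together. MT-CO1, the catalytic subunit with the most reads of all members, was at 6721 RPM for gata2a+ runx1+, 3702 RPM for gata2a- runx1+, and 6254 RPM for gata2a+ runx1- cells. MT-CO2, which receives electrons from cytochrome c, was at 629.8 RPM for gata2a+ runx1+, 695.1 RPM for gata2a- runx1+, and 648.8 RPM for gata2a+ runx1- cells. MT-CO3 was at 882.5 RPM for gata2a+ runx1+, 937.8 RPM for gata2a- runx1+, and 889.5 RPM for gata2a+ runx1- cells. The ratio of gata2a+ runx1+ to gata2a- runx1+ cells was 1.82 for MT-CO1 (1.79 to 1.84), but 0.906 for MT-CO2 (0.872 to 0.941) and 0.941 for MT-CO3 (0.911 to 0.972). Without MT-CO1 the mitochondrially encoded sum still had a ratio of 1.42 (1.40 to 1.43).

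MT-CYB, the mitochondrially encoded subunit of complex III, was at 1228 RPM for gata2a+ runx1+, 794.8 RPM for gata2a- runx1+, and 1112 RPM for gata2a+ runx1- cells. MT-ATP6, the proton channel subunit of complex V, was at 297.8 RPM for gata2a+ runx1+, 223.6 RPM for gata2a- runx1+, and 329.9 RPM for gata2a+ runx1- cells, and was the only gene of the 13 highest in gata2a+ runx1- cells. mt-atp8, which overlaps it, had 48, 32, and 36 reads in the same order, and its intervals held 1 in each comparison.

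Of the nuclear-encoded genes, 16 were under the minimum. NDUFA12, NDUFB4, NDUFB5, NDUFS1, NDUFS4, and ndufa4l2b were listed at 0 in every library. Since NDUFS1 among them encodes a core subunit that complex I needs in any tissue, a listed 0 was not read as absence. SDHD (ENSDARG00000055712), UQCRB, UQCRQ, cox7a1, and ndufa4b had at most 3 reads in any library. The remaining 5 were SDHC, ndufc1, atp5if1b, the COX5B copy ENSDARG00000113254, and NDUFA4L2. NDUFA4L2, known in mammals as a target of hypoxia signalling, had 7 reads in gata2a+ runx1- cells and 0 in each other library. The pairs NDUFA9 with ndufa9b and NDUFAB1 with ndufab1b kept their shares, the gene with more reads taking between 91.2% and 92.5% and between 92.5% and 93.7% of the pair.

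Other genes of mitochondria and translation were also lower in gata2a+ runx1+ cells relative to the gata2a- runx1+ library. Of 67 mitochondrial ribosomal protein genes tested, 63 were lower in gata2a+ runx1+ than in gata2a- runx1+ cells (44.7% of all genes were), 26 of them over 2-fold (12.7% of all genes), with a median difference in log2(RPM + 1) of -0.85. Of 37 assembly factor genes, 31 were lower, 9 over 2-fold, with a median of -0.54. Cytosolic ribosomal protein genes, a list added after the values were seen, were lower for 75 of 76, with 11 over 2-fold, a share near that of all genes, and with a median of -0.82. The TCA cycle and pyruvate dehydrogenase genes had a median of -0.29, with 13 of 19 lower and 0 over 2-fold lower. The nuclear-encoded subunits, at -0.78, thus lay close to both kinds of ribosomal protein genes in this comparison.

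Against gata2a+ runx1- cells these lists and the subunits differed. The median of the nuclear-encoded subunits was -0.52, whereas it was -0.14 for mitochondrial ribosomal proteins, -0.22 for assembly factors, 0.07 for TCA cycle genes, and 0.19 for cytosolic ribosomal proteins. Of the cytosolic ribosomal protein genes, 66 of 76 were higher in gata2a+ runx1+ cells (6388 of all 12339 genes tested were). The TCA value was -0.03 with DESeq2 size factors. In gata2a- runx1+ compared with gata2a+ runx1- cells all of these lists were higher, with medians of 0.77 for mitochondrial ribosomal proteins, 0.41 for assembly factors, 0.45 for TCA cycle genes, and 0.94 for cytosolic ribosomal proteins, against 0.18 for the nuclear-encoded subunits.

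**Figure D5:**
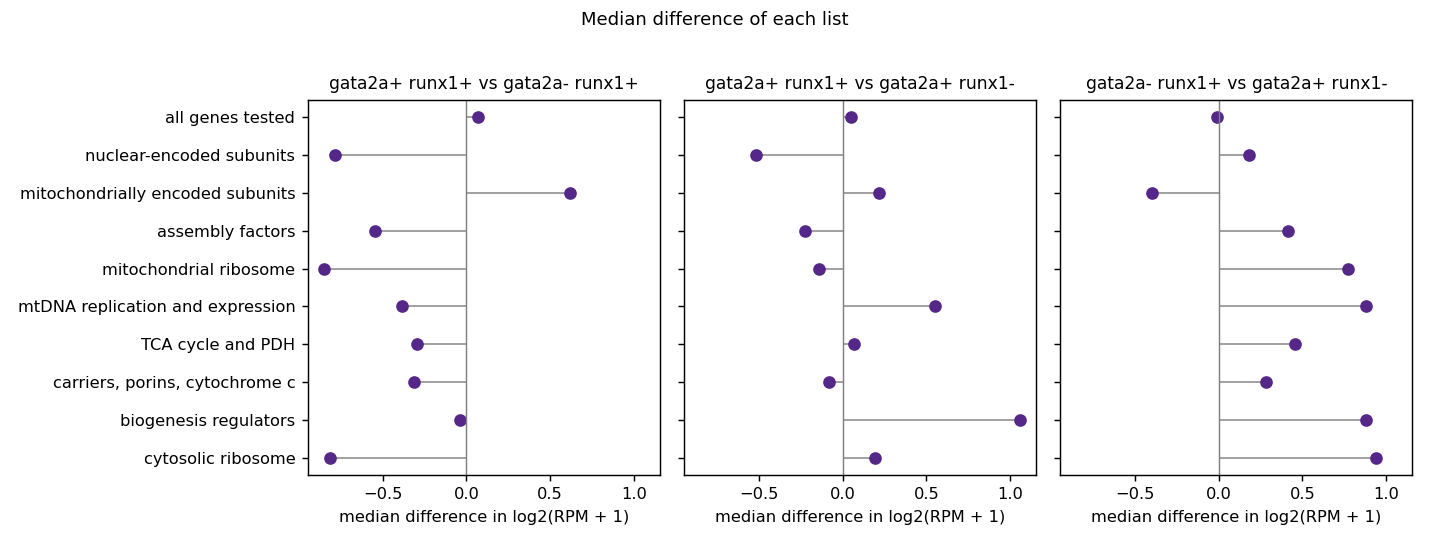
Median difference in log2(RPM + 1) of all genes tested, of nuclear-encoded and mitochondrially encoded subunits, and of 7 other lists, in 3 comparisons of libraries; the vertical line marks no difference. In gata2a+ runx1+ compared with gata2a- runx1+ cells the nuclear-encoded subunits were at -0.78 beside mitochondrial and cytosolic ribosomal proteins at -0.85 and -0.82, and the mitochondrially encoded subunits at 0.62.

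Of 16 genes for the replication and expression of mitochondrial DNA, 2 were highest in the gata2a+ runx1+ library (31% of all genes tested were) and 14 in the gata2a- runx1+ library (31.6%). Relative to gata2a- runx1+ cells, 14 were lower in gata2a+ runx1+ cells (44.7% of all genes were), with a median of -0.38. Relative to gata2a+ runx1- cells, 13 were higher (6388 of all 12339 genes were), with a median of 0.55. TWNK, the mitochondrial DNA helicase, was at 31.9 RPM for gata2a+ runx1+, 89.3 RPM for gata2a- runx1+, and 17.9 RPM for gata2a+ runx1- cells. POLRMT, the mitochondrial RNA polymerase, was highest in gata2a+ runx1+ cells, as was MTPAP, the mitochondrial poly-A polymerase, with 35, 17, and 6 reads. POLRMT had 59.7 RPM for gata2a+ runx1+, 42.5 RPM for gata2a- runx1+, and 53.2 RPM for gata2a+ runx1- cells. Its ratio of gata2a+ runx1+ to gata2a- runx1+ cells was 1.40 (1.22 to 1.62). The order of POLRMT levels was that of most mitochondrially encoded genes, unlike that of the 14 genes highest in gata2a- runx1+ cells, and a link was not tested.

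Of 11 regulators of mitochondrial biogenesis tested, 5 were higher and 6 lower in gata2a+ runx1+ than in gata2a- runx1+ cells (44.7% of all genes were lower), with a median of -0.04. Compared with gata2a+ runx1- cells, 10 were higher in gata2a+ runx1+ cells (6388 of all 12339 genes were), with a median of 1.06. GABPA and GABPB1, the subunits of a factor that in mammals activates many respiratory chain genes, were at 23.3 and 10.96 RPM for gata2a+ runx1+, 9.99 and 3.53 RPM for gata2a- runx1+, and 7.78 and 4.08 RPM for gata2a+ runx1- cells. ESRRA, a nuclear receptor with the same kind of targets, was at 16.5 RPM for gata2a+ runx1+, 37.05 RPM for gata2a- runx1+, and 16.9 RPM for gata2a+ runx1- cells. The coactivator ppargc1b was at 90.85 RPM for gata2a+ runx1+, 120.8 RPM for gata2a- runx1+, and 33.4 RPM for gata2a+ runx1- cells. The mitochondrial carriers and porins were lower for 8 of 8 genes tested (44.7% of all genes were), with a median of -0.31, in gata2a+ runx1+ compared with gata2a- runx1+ cells. VDAC2, an outer membrane channel, was at 1021, 1894, and 1062 RPM, and UCP2, an inner membrane carrier, at 152, 170.6, and 372.1 RPM in the same order. Among the 8 genes UCP2 alone was highest in gata2a+ runx1- cells.

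Nuclear-encoded subunits with many and with few reads had the same direction. Of the 23 that averaged 50 RPM or more, 21 were lower in gata2a+ runx1+ than in gata2a- runx1+ cells, 4 over 2-fold, with a median of -0.58, and of the 57 below that level 52 were lower, 27 over 2-fold, with a median of -0.87. The 50 RPM limit was chosen after the values were seen. Of all genes tested, 125 of 2883 at or above that level and 1436 of 9456 under it were over 2-fold lower, and their medians were 0.04 and 0.08. Erythroid markers, at 8 of 10 genes with over 3 reads in any library and alas2 at 0 in all, were highest in the same library as most nuclear-encoded subunits, as were thrombocyte markers, with 450.5 RPM for gata2a+ runx1+, 1095 RPM for gata2a- runx1+, and 612.1 RPM for gata2a+ runx1- cells. Of 8 thrombocyte genes tested, 5 were highest in gata2a- runx1+ cells (31.6% of all genes were). Though their sum was lower in gata2a+ runx1+ than in gata2a+ runx1- cells, 5 of the 8 were higher and 3 lower (47.8% of all genes were lower). The part of erythroid and thrombocyte markers in the results was not tested.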

How the data were processed

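RNA was sequenced from 3 sorted kidney populations, 1 library each, made by oligo-dT primed amplification (Quartz-Seq) and transposase tagging. Per the labels and their processing notes, the authors aligned reads to GRCz11 with HISAT2 2.1.0, counted them per gene with Subread 1.6.4, and deposited RPM, reads scaled by the library's total on genes, here to 2 decimals; strand use, treatment of reads with several matches, and annotation release are not given in the sources used here. Whole reads were recovered from the RPM steps for 100% of values.

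Symbols came from a table of gene names, which paired 28988 of 32057 genes with a symbol, often in the human form; repeated symbols are told apart by Ensembl ID. The members and gene lists were chosen with earlier results of these data known. Genes averaging 1 RPM or more were compared. With 1 library a population there was no test; ratios have exact conditional binomial 95% intervals, and a value of 3 reads or fewer was taken as 3 reads for 2-fold counts. The genes named are the mitochondrially encoded members and those with the most reads. Those with the highest and lowest ratio per complex and comparison at a mean of at least 5 RPM are also named. So are those over 2-fold above each other library, members of paralog families, those near 0, and the extreme genes of each list. Others, among them NDUFA8, ndufa7, UQCR10, MTPAP, and NDUFS1, were chosen after their values were seen. Alternatives used TMM (edgeR 4.0.16) and DESeq2 1.42.0 size factors, other totals, minimums, fold limits, pseudocounts, and Fisher's exact test, which at an adjusted p under 0.05 called 7741 of 12134, 8835 of 12317, and 9117 of 12302 genes in the 3 comparisons and so measures only reads of 2 libraries. Scripts ran in R 4.3.3 and Python with scipy 1.17.1 and were checked on simulated data. Promoter motifs were not analysed here.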

Additional observations from a re-analysis of the deposited data

How the results depend on the processing

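Each main result was set against each alternative that applied to it. Of these pairs of a result and a setting, 105 stayed within their interval or within 1.5 times the count, 54 moved, and 0 reversed. For medians this interval was a binomial one over the genes, which are not replicates, so it covers only the spread between genes. Some pairs could not change. Matching by RefSeq names, for example, added no mitochondrially encoded gene, so it left the mitochondrially encoded sums as they were. Only medians and sum ratios could be labelled as reversed, since counts and the quotient of the 2 genomes have no direction in this labelling. For gata2a+ runx1+ over gata2a- runx1+, the nuclear-encoded sum ratio was 0.655 without the 20 genes with the most reads, 0.629 with TMM, 0.633 with DESeq2 factors, and 0.652 without the top subunit gene, and the mitochondrially encoded one 1.55, 1.49, 1.497, and 1.42 in that order of settings. For gata2a+ runx1+ over gata2a+ runx1- they were 0.758, 0.713, 0.691, and 0.780, and 1.14, 1.08, 1.04, and 1.16. For gata2a- runx1+ over gata2a+ runx1- they were 1.16, 1.13, 1.09, and 1.20, and 0.738, 0.722, 0.696, and 0.821. Mitochondrially encoded reads per nuclear-encoded read were 1.05 for gata2a+ runx1+, 0.484 for gata2a- runx1+, and 0.705 for gata2a+ runx1- without the top gene of each class. With RefSeq names the quotient was 0.931 in gata2a+ runx1- cells. These names added 3 genes by symbol or synonym, among them EMC8, whose symbol does not name a subunit of complexes I to V. With a pseudocount of 5 RPM the nuclear-encoded medians of gata2a+ runx1+ cells were -0.57 against gata2a- runx1+ and -0.36 against gata2a+ runx1- cells. Complex sums, whose alternatives were added after seeing the data, reversed in 3 of 60 cases near 1, complex I between gata2a- runx1+ and gata2a+ runx1- at 1.01 without the top 20 genes, and complex II between gata2a+ runx1+ and gata2a+ runx1- at 0.998 with TMM and 0.967 with DESeq2 factors.

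Counts of subunit genes, out of 93 tested, depended on the limit and on which genes were compared. Another minimum or leaving out paralog families changes the number of subunit genes compared. Those counts are therefore not out of 93, and a lower count there need not be a lower share. Shares of all genes at 1.5-fold, at another minimum, or with other factors were not taken, so the counts under those settings have no background. All of these counts pool the 2 genomes. In the main setting, the 3 over 2-fold higher in gata2a+ runx1+ than in gata2a- runx1+ cells were all mitochondrially encoded, and the 31 over 2-fold lower all nuclear-encoded. In gata2a+ runx1+ against gata2a- runx1+ cells, 54 were lower and 9 higher at 1.5-fold, and 1 over 2-fold higher with TMM or DESeq2 factors. By Fisher's exact test 66 were lower and 11 higher, beside 3383 lower and 4358 higher of 12134 genes. In gata2a+ runx1+ against gata2a+ runx1- cells, 42 were lower at 1.5-fold, and 10 over 2-fold lower without paralog families. Fisher's exact test gave 49 lower and 14 higher, beside 4197 lower and 4638 higher of 12317 genes. In gata2a- runx1+ against gata2a+ runx1- cells, 22 were higher and 6 lower at 1.5-fold. Here Fisher's exact test gave 35 higher and 19 lower, beside 4431 higher and 4686 lower of 12302 genes. Over 2-fold, 3 were higher and 0 lower at a minimum of 5 RPM, and 2 lower with no minimum. At 1.5-fold, 2 were above each other library in gata2a+ runx1+, 19 in gata2a- runx1+, and 3 in gata2a+ runx1- cells. At 2-fold, the count was 2 in gata2a- runx1+ cells at a minimum of 5 RPM or without paralog families, and in gata2a+ runx1- cells the count was 0 at a minimum of 5 RPM and 2 with no minimum. No paired analysis was possible because each population had 1 library, so no library could be left out either. Depth limits the low genes most, as NDUFS8 with 17 reads in gata2a+ runx1+ cells.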

Other observations

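Genes outside the complexes gave further values. SDHAF3, an assembly factor of complex II, was at 5.42 RPM for gata2a+ runx1+, 9.63 RPM for gata2a- runx1+, and 1.24 RPM for gata2a+ runx1- cells, and SUCLG1, a TCA cycle enzyme, at 125.3, 241.5, and 259.1 RPM in that order. MRPS10, a mitochondrial ribosomal protein gene, was at 14.7, 59.2, and 33.6 RPM, and tfb2m, a mitochondrial transcription factor gene, at 76.2, 122.5, and 29.0 RPM. SDHAF3 and tfb2m were thus lowest in gata2a+ runx1- cells, and SUCLG1 and MRPS10 in gata2a+ runx1+ cells.

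Markers of other cells also differed between the libraries. Summed neutrophil markers were at 1280 RPM for gata2a+ runx1+, 527.3 RPM for gata2a- runx1+, and 1872 RPM for gata2a+ runx1- cells. Macrophage markers were at 81.2, 98.95, and 560.5 RPM in the same order, T cell markers at 5.79, 0.487, and 35.1 RPM, and endothelial markers at 79.2, 26.1, and 173.2 RPM. The neutrophil sum covers 6 of 7 entries, with 3 genes tested, and leaves out mpx. The study lists mpx as highest in gata2a- runx1+ cells, so this sum gives no order for neutrophil markers as a whole. The T cell sum covers 5 of 8 entries, with 2 genes tested, and held only 4 reads in gata2a- runx1+ cells. In gata2a+ runx1+ and in gata2a- runx1+ cells, 3 of its 5 genes had 0 reads, so it rests on few genes. Of 7 macrophage genes tested, 5 were lowest in gata2a- runx1+ cells (35.4% of all genes tested were). Most of the macrophage sum there was spi1b, by the values the study lists. The part of these markers in the subunit results was not tested.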
